A study of Mus musculus with 66 samples.

Results

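The 10 genes described here encode 8 Eph receptors (Ephb1, Ephb2, Epha3, Epha4, Epha5, Epha6, Epha7 and Epha8) and 2 ephrins (Efna5 and Efnb2). Every region that the deposited lists assigned to one of these genes was taken, from 7 lists of genomic regions in which a histone signal differed between 2 groups. This gave 71 of 57678 listed regions, at 9 of the 10 genes. No region in any list was assigned to Efnb2. Gained and lost are used here for regions that the lists give as higher or lower with KCl or enriched housing, whatever their adjusted p. The members were chosen by the lists themselves, that is on the normalised counts and authors' p-values that made a region count as changed, so the values below describe them and no new test was made.

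The series measured histone H3 variants in chromatin of C57bl/6 mice. Cells place the variant H3.3 into chromatin at any stage of the cell cycle, also in neurons that no longer divide. The other forms measured, H3.1/2, are mostly deposited as DNA is copied. Primary cortical neurons of E16.5 embryos, kept for 8 days in vitro, were depolarised with isotonic KCl or left without stimulation. Chromatin was collected for H3.3 at 30 min, 2 hr and 5 hr of stimulation, each time with an unstimulated group of its own, and for H3.1/2 at 5 hr. In CATCH-IT, histones made during a labelling period are tagged through a modified amino acid and pulled down, which measures histone turnover, and it was applied at 5 hr with and without KCl. Hippocampal nuclei were sorted for the neuronal protein NeuN from mice about 7 weeks old. The mice had lived in an enriched environment or in normal housing. The labels give 4 weeks of enrichment for the NeuN-positive nuclei and no length for the NeuN-negative ones. Each culture group and each NeuN-negative group had 3 values per region, and each NeuN-positive (NeuN+) group had 2. The labels describe these libraries as biological replicates. The lists hold only changed regions, so the identity of the cells could not be checked against marker genes.

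Eph receptors are receptor tyrosine kinases whose ligands, the ephrins, are themselves bound to the membrane of the neighbouring cell. EphA receptors bind mainly the lipid-anchored ephrin-As and EphB receptors mainly the transmembrane ephrin-Bs, and both the receptor-bearing and the ephrin-bearing cell receive a signal. In the brain the family guides growing axons, and in the mature cortex and hippocampus it acts at dendritic spines and excitatory synapses.

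The H3.3 lists held 5 short stretches of these genes, which are printed here because the H3.3 comparisons rest on them. All letters are from the plus strand of mm9, while all 3 genes involved are transcribed from the minus strand. In the Ephb1 sequences, capitals mark matches to TGACG, a part of the cAMP response element TGACGTCA. In the Epha3 sequence they mark the longest run made of C and T alone. The last sequence is the 200 bp window that the authors reported as the best in the CATCH-IT region of Ephb1 at chr9:102151961-102152320.
Ephb1, H3.3 gained at 30 min, chr9:102151461-102151660: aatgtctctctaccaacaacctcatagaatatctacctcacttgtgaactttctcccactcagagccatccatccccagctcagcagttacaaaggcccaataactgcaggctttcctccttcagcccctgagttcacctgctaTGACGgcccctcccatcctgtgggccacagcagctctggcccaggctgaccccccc
Ephb1, H3.3 gained at 2 hr, chr9:101979801-101980000: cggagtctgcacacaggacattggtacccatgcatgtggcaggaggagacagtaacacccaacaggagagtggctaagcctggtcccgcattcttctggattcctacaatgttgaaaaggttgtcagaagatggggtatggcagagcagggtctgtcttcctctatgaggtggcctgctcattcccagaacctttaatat
Ephb1, H3.3 gained at 5 hr, chr9:101883721-101883940: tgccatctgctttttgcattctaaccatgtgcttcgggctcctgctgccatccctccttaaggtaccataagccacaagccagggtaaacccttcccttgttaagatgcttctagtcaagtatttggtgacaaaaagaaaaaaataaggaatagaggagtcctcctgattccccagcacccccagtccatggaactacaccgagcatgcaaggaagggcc
Epha4, H3.3 gained at 5 hr, chr1:77458421-77458620: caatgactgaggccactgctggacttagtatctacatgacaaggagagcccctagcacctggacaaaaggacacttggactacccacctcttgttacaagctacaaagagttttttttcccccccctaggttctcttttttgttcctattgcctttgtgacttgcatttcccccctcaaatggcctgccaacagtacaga
Epha3, H3.3 lost with enriched housing, chr16:63638021-63638240: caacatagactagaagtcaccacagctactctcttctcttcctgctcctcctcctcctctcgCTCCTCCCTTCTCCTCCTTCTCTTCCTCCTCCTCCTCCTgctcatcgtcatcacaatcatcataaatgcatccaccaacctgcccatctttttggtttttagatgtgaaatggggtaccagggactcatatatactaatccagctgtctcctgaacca
Ephb1, CATCH-IT gained at 5 hr, window chr9:102151961-102152160: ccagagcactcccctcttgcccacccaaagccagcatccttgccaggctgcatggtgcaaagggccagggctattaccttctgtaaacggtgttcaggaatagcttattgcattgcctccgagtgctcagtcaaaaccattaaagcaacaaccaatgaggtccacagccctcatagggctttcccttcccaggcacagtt

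The 4 gained H3.3 regions had a GC content of 47.5% to 55.5%. A set of 3 letter patterns was searched on both strands: TGANTCA, which covers the sites of the activity-induced factor AP-1, the full element TGACGTCA, and TGACG, which the full element contains. No sequence held TGANTCA or TGACGTCA. TGACG occurred once in the Ephb1 region of the 30 min list, from base 145, and 7.03% of the 313 regions of 200 bp in that list held it. It also occurred once in the Epha3 region, on the minus strand from base 108, and 5.73% of the 279 regions of 220 bp in that list held it. The Epha3 region carried 39 bases in a row of C and T, from base 63 to base 101. Of those 279 regions, 4 (1.43%) held a run of C and T, or of A and G, that was as long or longer. In the other 4 H3.3 regions the longest such run was 9 to 17 bases.

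Per the file headers, the value given for each library is a normalised read count, and the values within a list were whole multiples of what 1 read was worth in that library. One read was worth 0.758 to 1.36 in the H3.3 culture libraries, 0.785 to 1.51 in the NeuN+ libraries and 0.316 to 2.72 in the CATCH-IT libraries. The lane number in the labels differed between KCl and unstimulated libraries at 30 min and 2 hr and in CATCH-IT. It also differed between enriched and normally housed libraries, both NeuN+ and NeuN-negative. Lane and treatment therefore cannot be told apart in these comparisons. The 5 hr H3.3 libraries of both groups carry the same 3 lane numbers, but the labels give these libraries no index and name no run, so a difference in run between the groups cannot be told apart from the treatment. The values carry no library names, so they could not be compared by lane.

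Ephb1 had an H3.3 region listed as gained at all 3 times after KCl, each time at a different place. The gains at 30 min and 2 hr had an adjusted p under 0.05 in the authors' deposited table, and the gain at 5 hr did not. Ephb1 encodes EphB1, a receptor for ephrin-Bs that is known at excitatory synapses and in axon guidance. The gene spans chr9:101824458-102257023, 433 kb on the minus strand. Its 3 H3.3 regions lay in introns 1, 3 and 10 of the 15 introns of the longest coding transcript, 105 kb, 277 kb and 373 kb downstream of the gene start. Each was at least 95860 bp from the next, so no H3.3 region of Ephb1 was listed at more than 1 time. A region that is missing from a list was not shown to be unchanged, because the lists hold only regions that pass the authors' thresholds.

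At 30 min, the region in intron 1 had normalised H3.3 counts of 12.1, 12.6 and 9.26 in the KCl libraries. The unstimulated libraries had 1.27, 5.00 and 1.95. Every KCl library was above every unstimulated one, with means of 11.3 ± 1.81 and 2.74 ± 1.99 (SD, n = 3 each). Regions were listed on these same counts, so such separation, here and at the H3.3 regions below, is no further evidence of a change. These counts stood for 14, 12 and 9 reads with KCl and 1, 6 and 2 without. The authors' deposited table gave a log2 difference of 2.05 with an adjusted p of 0.0299. The ratio to input in the authors' deposited table moved the same way, 1.75 with KCl and 0.45 without. Ephb1 was 1 of the 92 gained regions of the 30 min list, where 20.1% of 457 regions were gained and 19.9% were gained with an adjusted p of 0.05 or less. The region was 25679 bp from the nearest exon.

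At 2 hr, the region in intron 3 had counts of 11.9, 12.9 and 10.9 with KCl. Without stimulation the counts were 2.04, 3.33 and 3.68. The groups did not overlap, and their means were 11.9 ± 0.996 and 3.02 ± 0.864 (SD, n = 3 each), the narrowest spread among the 3 Ephb1 regions. The authors' deposited table gave a log2 difference of 1.98 and an adjusted p of 0.0182. In the authors' deposited table the ratio to input was 3.86 with KCl and 1.62 without. Gained regions were rarer at this time than lost ones, 14.4% of 689 listed regions, and 14.2% were gained with an adjusted p of 0.05 or less.

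At 5 hr, the region in intron 10 had counts of 11.8, 13.2 and 15.9 with KCl. The unstimulated libraries had 5.90, 1.03 and 2.91. The KCl libraries were again all above the unstimulated ones, with means of 13.6 ± 2.07 and 3.28 ± 2.46 (SD, n = 3 each). The authors' deposited table gave a log2 difference of 2.05, as at 30 min, with an adjusted p of 0.0797. This adjusted p is above 0.05, and only 1.65% of the 667 regions in the 5 hr list were gained with an adjusted p of 0.05 or less, against 44.2% that were listed as gained. In the authors' deposited table the ratio to input was 2.52 with KCl and 0.59 without. The region ended 2472 bp from an exon, the closest of the 5 H3.3 regions.

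When each library was left out in turn, the log2 ratio of group means at Ephb1 ranged from 1.71 to 2.82 at 30 min, from 1.76 to 2.15 at 2 hr and from 1.63 to 2.79 at 5 hr. All 6 such values at each time were past 3-fold. The regions were listed for a difference of about 3-fold or more in these same counts, so this is no further evidence of a change. With a pseudocount of 1 on the means, 4 of 6 were past 3-fold at 30 min, 5 of 6 at 2 hr and 5 of 6 at 5 hr. The values under 3-fold were those without the first or the third unstimulated value at 30 min (lowest 1.46), without the first at 2 hr (1.52) and without the second at 5 hr (1.43). Over the 3 KCl lists of H3.3, 1127 genes had a region at any time and 9 had one at all 3 times. Of these 9, Ephb1 and the fibroblast growth factor receptor gene Fgfr2 were gained at all 3 times, while 6 had a lost region at all 3 times. In the annotation used all 9 genes spanned 311 kb or more, with Ephb1 at 433 kb and Fgfr2 the longest at 3009 kb. Whether that Fgfr2 span is a sound gene model, and where its regions lie in it, was not checked. The part of gene length in this count was not tested. Ephb1 and Fgfr2 had no lost H3.3 region in these lists. Fgfr2 is named here because it shares this count with Ephb1, and was chosen after its values were seen.

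Epha4 had 1 H3.3 region, listed as gained at 5 hr with an adjusted p above 0.05. It encodes EphA4, a receptor that binds ephrins of both classes and is known for spine retraction in the hippocampus when it meets ephrin-A3 on astrocytes. The gene spans chr1:77363760-77511663, 148 kb on the minus strand, and the region lay in intron 3 of 17, 53.1 kb from the start. The counts were 17.7, 15.8 and 15.9 with KCl and 1.18, 7.18 and 7.76 without. The groups did not overlap, and the unstimulated mean was 5.37 ± 3.64 (SD, n = 3), with the SD of the KCl libraries at 1.08, but 1 unstimulated library was far below the other 2. The authors' deposited table gave a log2 difference of 1.62 and an adjusted p of 0.110. Every listed region had an absolute log2 difference of at least 1.59, so this region was just inside the threshold. Without the lowest unstimulated library the log2 ratio was 1.14, and without the highest KCl library it was 1.56, both under 3-fold. With a pseudocount of 1 the log2 ratio over all libraries was 1.45, under 3-fold. In the authors' deposited table the ratio to input was 3.05 with KCl and 1.19 without.

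Epha3 lost H3.3 in hippocampal neuronal nuclei after enriched housing. It encodes EphA3, a receptor for ephrin-As with a known part in axon guidance. The gene spans chr16:63543364-63863984, 321 kb on the minus strand, and the region lay in intron 5 of 16, 226 kb from the start and 13801 bp from the nearest exon. The enriched libraries had counts of 5.49 and 4.28, and the normally housed libraries had 16.6 and 20.6. Both enriched libraries were below both others, with means of 4.88 ± 0.856 and 18.6 ± 2.82 (SD, n = 2 each). In reads the difference was smaller, 7 and 5 against 11 and 20, since 1 read was worth more in the normally housed libraries. The authors' deposited table gave a log2 difference of -1.92 and an adjusted p of 0.0343. In the authors' deposited table the ratio to input was 0.7 after enriched housing and 3.14 in normal housing. With a pseudocount of 1 the log2 ratio was -1.73, and it was -1.58 without the second normally housed value, just under 3-fold. Lost regions were the minority in this list, 28.2% of 1642 regions, and 27.7% were lost with an adjusted p of 0.05 or less. No region of the 10 genes was listed in the NeuN-negative (NeuN-) nuclei, where 1196 regions were listed, or among the 7 regions of H3.1/2.

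**Figure D1:**
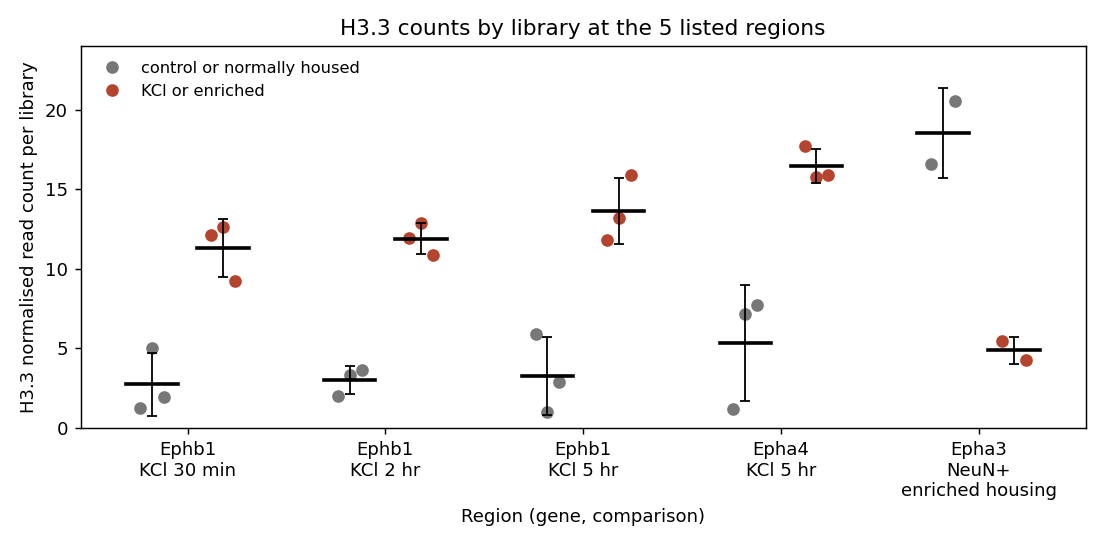
Normalised H3.3 read count (vertical axis) of each library (points) at the 5 listed H3.3 regions (horizontal axis), with the mean (horizontal bar) and SD (vertical bar) of each group, n = 3 per culture group and n = 2 per housing group. At the 3 Ephb1 regions and the Epha4 region every KCl library lies above every unstimulated one, and at Epha3 both enriched libraries (5.49 and 4.28) lie below both normally housed ones (16.6 and 20.6). The regions were listed on these same counts, so the separation is no further evidence of a change.

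All 5 H3.3 regions were intronic, and none lay within the first 10% of its gene. The Ephb1 regions lay 24.4%, 64.1% and 86.3% of the way along the gene, the Epha4 region 35.9% and the Epha3 region 70.4%. For Ephb1, the authors' deposited table of the 30 min comparison gives a distance to the start of 210038 bp and that of the 2 hr comparison gives 38378 bp. In those lists the distance of all 192 and 201 regions at minus-strand genes was counted from the lower coordinate of the transcript span given in the row, which is where such a transcript ends. For Ephb1 that span runs from 101941522 to 102257023, a shorter transcript with the same start as the gene. The distances above were therefore counted from the annotated start. In the 5 hr and NeuN+ lists the deposited distances of 373192 bp, 53142 bp and 225854 bp were those found here.

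**Figure D2:**
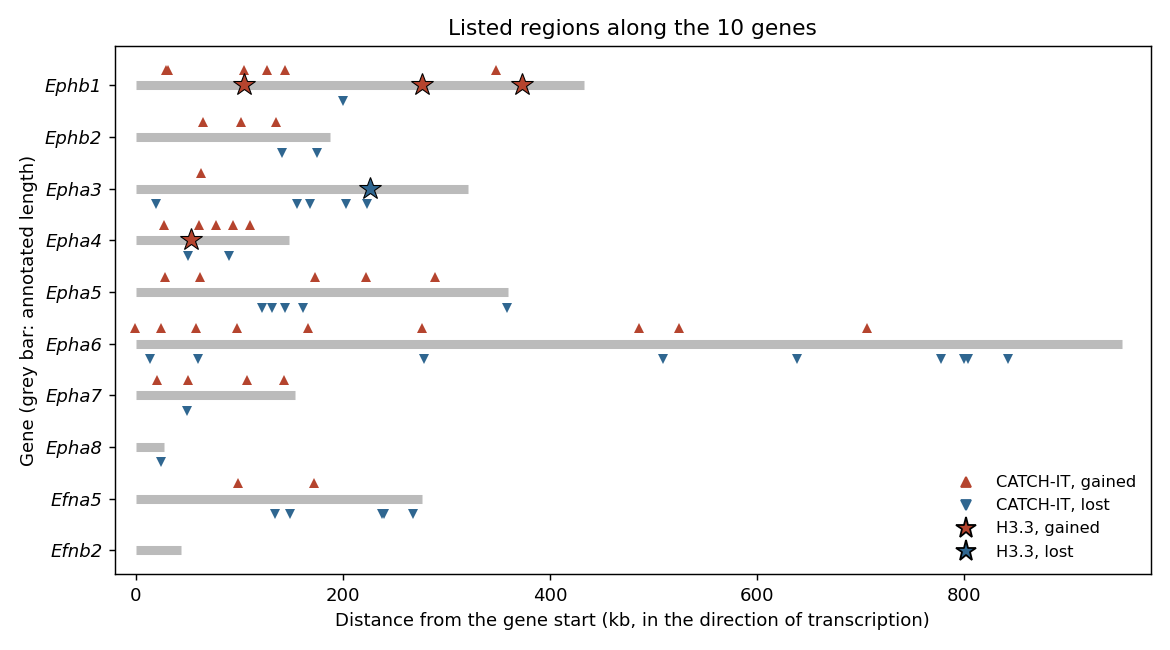
Position of each of the 71 listed regions along the 10 genes, as distance from the gene start in kb, with the annotated gene length as a grey bar. Stars are H3.3 regions and triangles are CATCH-IT regions, pointing up where gained and down where lost, and Efnb2 has none.

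CATCH-IT at 5 hr listed 66 regions at 9 of the 10 genes, of which 35 were gained and 31 were lost with KCl. In the whole list of 53020 regions, 57.3% were gained and 42.7% were lost, and at these genes 53% were gained, so that the share was close to the background. Regions were also about as dense as elsewhere, 2.24 per 100 kb over the spans of these genes and 2.33 per 100 kb over all protein-coding genes. The adjusted p in the authors' deposited table was between 4.15e-07 and 0.000291 at the 66 regions. The balance of gained and lost regions differed from gene to gene and was not tested.

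**Figure D3:**
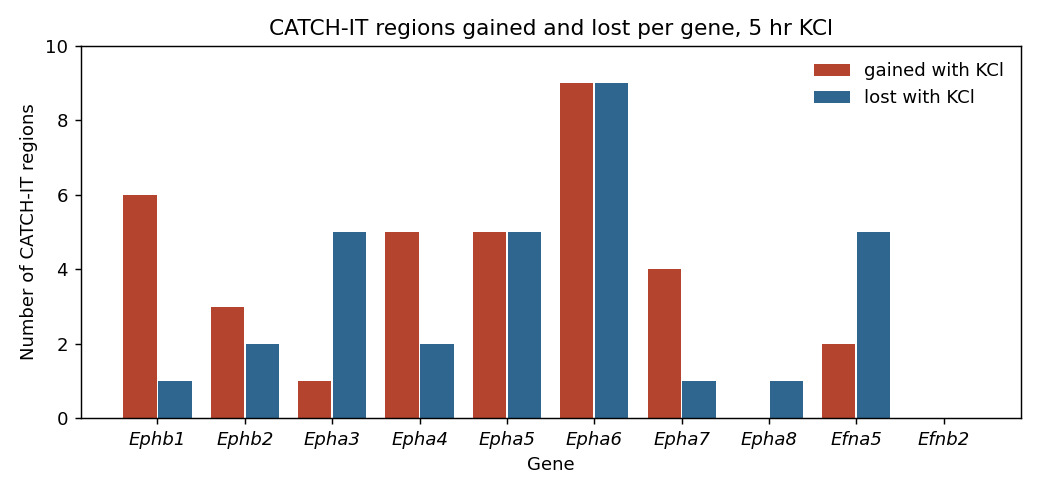
Number of CATCH-IT regions (vertical axis) gained and lost with KCl at 5 hr, for each of the 10 genes (horizontal axis). Ephb1 (6 and 1), Epha4 (5 and 2) and Epha7 (4 and 1) have more gained than lost regions, while Epha3 (1 and 5) and Efna5 (2 and 5) have more lost than gained ones.

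Among the EphB receptors, Ephb1 had 6 gained CATCH-IT regions and 1 lost, where 57.3% of the whole list was gained. None of these regions shared a base with an H3.3 region of Ephb1. Its gained region with the smallest p lay in intron 6, at chr9:101908501-101908880, 348 kb from the start. Its KCl counts were 16.0, 1.60 and 13.6, and all unstimulated counts were 0. The lost region lay in intron 3, at chr9:102057201-102057520, with unstimulated counts of 2.21, 8.32 and 14.2 and none with KCl. The other 5 gained regions had KCl means of 4.37 to 12.3 and lay in introns 1 and 2, within 144 kb of the start.

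Ephb2, which encodes a receptor that binds to NMDA receptors at synapses, spans chr4:136203454-136391903 on the minus strand. It had 3 gained and 2 lost regions. A gained region over a coding exon, chr4:136326921-136327300, had exactly 6 reads in each KCl library, which gave counts of 8.02, 3.20 and 16.3. A lost region over another coding exon, chr4:136216201-136216620, lay 93.1% of the way along the gene and had unstimulated counts of 1.89, 33.3 and 22.5. With 49 reads over the 3 libraries it was the most deeply covered of the 66 regions. Neither region had a read in the other group.

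Among the EphA receptors, Epha3 had 5 lost regions against 1 gained, where 42.7% of the whole list was lost. The lost region with the smallest p was at chr16:63641221-63641560 in intron 5, with unstimulated counts of 3.16, 8.32 and 14.2 and none with KCl. It lay 2980 bp from the region that lost H3.3 with enriched housing, in the same intron. The only gained region, chr16:63800621-63801000 in intron 2, had counts of 8.02, 0.533 and 2.72. These were 6, 1 and 1 reads, the lowest total of the 66 regions, and without the first value its log2 difference with a pseudocount of 1 was 1.39, under 3-fold. Another lost region, chr16:63843701-63844060, lay over a coding exon 20.1 kb from the start and had 5, 4 and 12 reads in the unstimulated libraries.

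Epha4 had 5 gained and 2 lost CATCH-IT regions, the highest density of the genes with more than 1 region, 4.73 per 100 kb. The gained region with the smallest p, chr1:77417681-77417940 in intron 5, had KCl counts of 8.02, 3.20 and 21.7. The lost region with the smallest p, chr1:77461001-77461300 in intron 3, had unstimulated counts of 0.63, 6.93 and 14.2. That lost region lay 2380 bp from the H3.3 region in the same intron, which was listed as gained at 5 hr, and shared no base with it. The other CATCH-IT regions of that intron, chr1:77483921-77484380 and chr1:77450301-77450720, were gained like the H3.3 region.

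Epha5, Epha6 and Epha7 encode receptors for ephrin-As that are known for topographic mapping of axons. Epha5 spans chr5:84486816-84846407 on the minus strand and had 5 gained and 5 lost regions. Its gained region at chr5:84673241-84673680 in intron 3 had the most even normalised counts of its gained regions. These were 5.34, 7.46 and 5.44 with KCl, with a mean of 6.08 ± 1.20 (SD, n = 3). In reads they were less even, 4, 14 and 2, since the worth of 1 read differed between the libraries. Its lost region with the smallest p, chr5:84702161-84702480, lay in the same intron and had unstimulated counts of 2.52, 6.93 and 14.2. A lost region at chr5:84487221-84487560, with 8, 3 and 12 unstimulated reads, lay 99.8% of the way along the gene in an untranslated part of the transcript.

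Epha6 is the longest of the 10 genes, 952 kb on the minus strand at chr16:59653309-60605357, and had 9 gained and 9 lost regions. Without the second unstimulated value, 4 of the 9 lost regions fell under 3-fold with a pseudocount of 1, and 5 stayed past it whichever single value was left out. At promoters lay 1.52% of the CATCH-IT regions of the 10 genes, against 5.12% of the whole list. Epha6 held the only such region, a gain at chr16:60606181-60606480, 0.974 kb upstream of the start. The KCl libraries had 1, 12 and 1 reads there, and counts of 1.34, 6.39 and 2.72. The gained region with the smallest p was at chr16:60327861-60328240 in intron 3, with KCl counts of 8.02, 3.20 and 19.0. The lost region with the smallest p, chr16:60095701-60096020 in intron 5, rested mostly on 1 library, with unstimulated counts of 0.95, 51.3 and 1.18. Without that library its log2 difference, with a pseudocount of 1, went from -4.23 to -1.05. Of the 66 regions, 2 (3.03%) had reads in both groups, against 2.3% of the whole list, and both were in Epha6. The one with the higher mean, chr16:59899281-59899480, had KCl counts of 8.02, 3.20 and 13.6 and a single read, a count of 0.32, in 1 unstimulated library.

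Epha7, on the plus strand at chr4:28740281-28894649, had 4 gained regions and 1 lost. Its gained region at chr4:28847681-28848100 in intron 5 had the highest mean of all gained regions here, with KCl counts of 16.0, 6.39 and 54.4 from 12, 12 and 20 reads. The gained region with the smallest p, chr4:28790281-28790740, had KCl counts of 28.1, 1.60 and 13.6. The lost region, chr4:28789401-28789700, was 580 bp from it in the same intron and had unstimulated counts of 2.21, 5.54 and 14.2. Epha8, the shortest gene with a region, spans chr4:136485334-136512731, 27.4 kb on the minus strand. It had a single lost region over a coding exon, chr4:136488221-136488600, with exactly 6 reads in each unstimulated library and counts of 1.89, 8.32 and 7.10.

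Of the 2 ligand genes, Efna5 had 2 gained and 5 lost regions. It encodes ephrin-A5, a repulsive axon guidance ligand for EphA receptors, and spans chr17:62953533-63230666 on the minus strand. The gained region with the smallest p, chr17:63131561-63131940 in intron 1, had KCl counts of 10.7, 3.20 and 10.9. The lost region with the smallest p, chr17:62990581-62990880 in intron 2, had unstimulated counts of 2.52, 12.5 and 14.2. A further lost region lay 1940 bp away in the same intron. Efnb2, which encodes the transmembrane ligand ephrin-B2, spans 43.8 kb at chr8:8617434-8661239 and had no region.

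Of the 66 CATCH-IT regions, 60 were intronic, 4 touched a coding exon, 1 an untranslated part, and 1 lay upstream of a gene. The 5 regions on exons were Ephb2 gained and lost, Epha3 lost, Epha8 lost and Epha5 lost, and they are named here for their position after their values were seen. The first 10% of the gene held 8 of the 66. Of the gained regions 20 lay before and 14 after the midpoint of the gene, and of the lost regions 13 and 18. These places were counted at the 66 regions alone, with no share over the whole list beside them. Lost regions had a median GC content of 35.6%, under the median of 42.7% over all lost regions in the list. Gained regions had a median of 42.1%, near the 43.2% of all gained regions. The genes themselves have a GC content of 35.3% (Epha5) to 56.2% (Epha8), and the 4 genes under 40% (Epha3, Epha5, Epha6 and Epha7) held 20 of the 31 lost and 19 of the 35 gained regions.

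**Figure D4:**
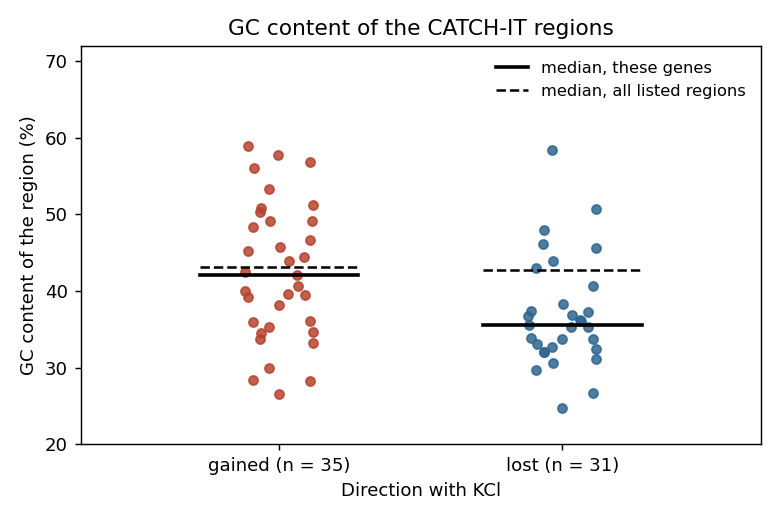
GC content in percent (vertical axis) of each CATCH-IT region of the 10 genes (points), gained or lost with KCl, with the median of these regions (solid line) and of all listed regions of that direction (dashed line). The lost regions have a median of 35.6% against 42.7% in the whole list, the gained ones 42.1% against 43.2%.

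The CATCH-IT regions rested on few reads. The 3 libraries of the higher group together had 8 to 49 reads per region, with a median of 19 against 18 over the whole list. At 64 of the 66 regions (97%) all 3 libraries of the higher group had reads and the other group had none. This was near the 97.7% of the whole list. Where a group is at 0 the authors' log2 difference is infinite. The log2 values and 3-fold calls given here for such regions use a pseudocount of 1, so their size is set in part by it. Input had no read in either group at 34 of the 66 regions, so that their ratio to input is not defined. That was 51.5%, against 53.1% of the whole list. Only 3 gained and 3 lost regions had a ratio defined in both groups, and there it moved the same way as the counts. Reads also gathered at whole multiples of 6: 52 of the 66 regions (78.8%) had at least 1 library at such a number, against 74.7% of the whole list. Of the 31 lost regions, 20 had exactly 12 reads in the third unstimulated value. Over the whole list, 81.5% of the non-zero values of that library were multiples of 6, and the name of the deposited list gives a duplicate setting of 6. The same values recurred at other places. Unstimulated counts of 0.32, 16.6 and 1.18 with none in KCl occurred at 3 Epha6 regions and at 756 regions of the list. The part of this setting in the listed regions and in the recurring values was not tested.

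**Figure D5:**
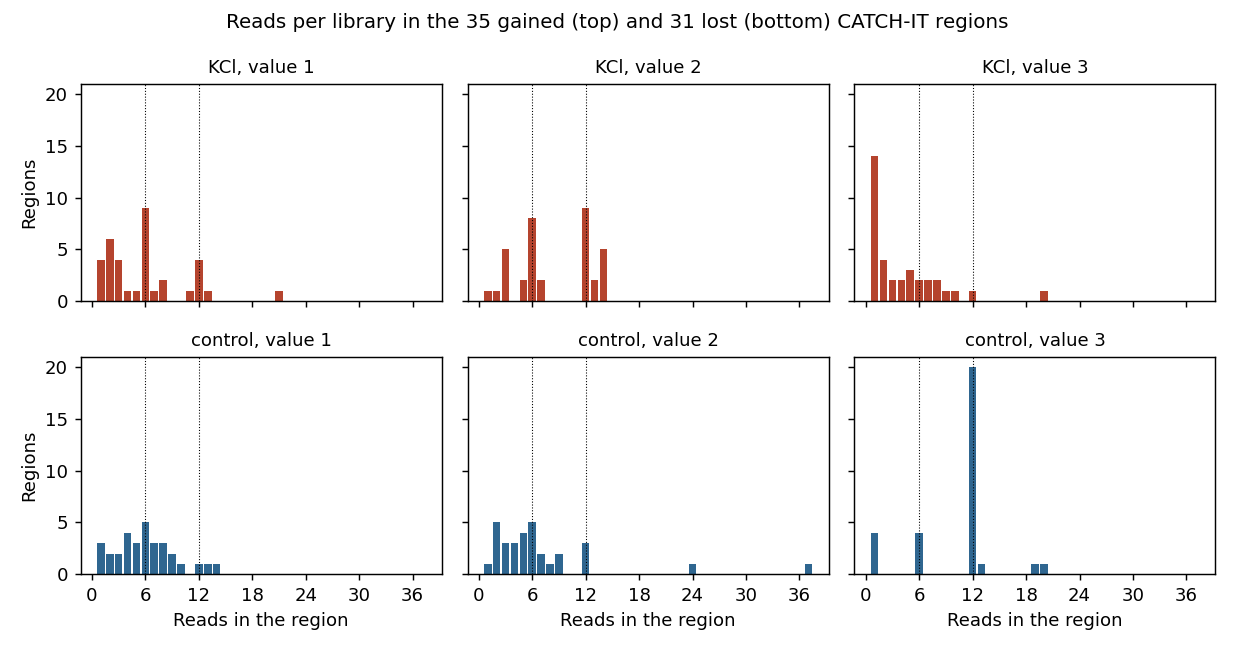
Number of CATCH-IT regions of the 10 genes (vertical axis) by the number of reads in the region (horizontal axis), for each of the 3 KCl values at the 35 gained regions (top) and each of the 3 unstimulated values at the 31 lost regions (bottom), with dotted lines at 6 and 12 reads. The third unstimulated value has 12 reads at 20 of the 31 lost regions.

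The H3.3 and CATCH-IT regions did not overlap at any base. One pair lay within 1000 bp. The region of Ephb1 intron 1 that gained H3.3 at 30 min and the CATCH-IT region gained at 5 hr, chr9:102151961-102152320, were 300 bp apart. That CATCH-IT region had 2, 14 and 2 reads in the KCl libraries and none without, with a mean count of 5.19 ± 2.40 (SD, n = 3). Within the CATCH-IT list, neighbouring regions of a gene could go opposite ways. The closest pair was in intron 3 of Epha6, where the lost region chr16:60327521-60327820 ended 40 bp before the gained region chr16:60327861-60328240. The lost region had 4, 8 and 13 unstimulated reads and none with KCl, and the gained region had 6, 6 and 7 KCl reads and none without.

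None of the other 12 receptors and ephrins of the family had a region in any H3.3 list or in the H3.1/2 list. In CATCH-IT 6 of the 12 had one: Efna2, Efnb3, Epha2 and Epha10 were only gained, Epha1 was only lost, and Ephb4 had 1 gained and 1 lost region. The gained Efnb3 region had the highest mean of these, 30.1 ± 33.1 with KCl (SD, n = 3) and 0 without. The Epha10 gain and the Ephb4 loss were at promoters.

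A list of 50 gene symbols covered proteins known to act with Eph receptors or ephrins. In CATCH-IT, 33 of them had a region, 84 gained and 52 lost, so that 61.8% were gained, near the 57.3% of the whole list. In the H3.3 lists most of their regions were lost after KCl. At 30 min, 4 had H3.3 regions, and all 4 regions were lost. They were Cdc42, Chn1, which encodes the Rac inactivator alpha-chimaerin that acts below EphA4, the G-protein regulator Rgs3, and the exchange factor Vav2. At Chn1 the counts were 5.19, 3.15 and 1.03 with KCl and 14.0, 11.7 and 10.7 without. The adjusted p in the authors' deposited table was 0.0278 to 0.029 at these 4 regions. Losses with an adjusted p of 0.05 or less made up 78.6% of the 30 min list, so that 4 of 4 lost is near the background, while Ephb1 was on the gained side.

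At 2 hr the genes of this list had 5 lost regions and 1 gained. Losses were at Chn2, Vav2 and 3 places in Fyn, a Src-family kinase that phosphorylates proteins below Eph receptors. The gain was at the adaptor gene Nck2, with counts of 17.5, 11.4 and 13.6 with KCl and 1.02, 5.00 and 7.36 without. The authors' deposited table gave adjusted p values of 0.0107 to 0.0236 for the 6 regions. In the whole 2 hr list 85.3% of regions were lost with such a p. At Fyn the counts of the region chr10:39196461-39196680 were 4.59, 3.79 and 2.72 with KCl and 12.2, 12.5 and 16.0 without, but the authors' deposited table gave a higher ratio to input with KCl, 2.4 against 1.22. The Chn2 region had the same mismatch, 2.44 against 1.97.

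At 5 hr there were 5 lost regions (Anks1b, Chn2 and Itsn2) and 1 gained, none with an adjusted p of 0.05 or less in the authors' deposited table. Lost regions made up 55.8% of that list. The gained one was at Ngef, which encodes ephexin-1, an exchange factor bound by EphA4, with counts of 12.8, 11.4 and 12.9 with KCl and 5.90, 1.03 and 3.88 without. Its adjusted p in the authors' deposited table was 0.110, as for Epha4.

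In NeuN+ nuclei, enriched housing came with losses at Anks1b, the focal adhesion kinase gene Ptk2 and the Rac exchange factor gene Tiam2, and with a gain at Nck2. At Tiam2 the counts were 7.85 and 4.28 after enriched housing and 21.1 and 20.6 in normal housing. At Nck2 both enriched libraries had 18.8, against 6.02 and 4.11. The adjusted p in the authors' deposited table was 0.0356 to 0.0415 for these 4 regions. In that list 70.1% of regions were gained with an adjusted p of 0.05 or less, so that the losses at Epha3 and these 3 partners were on its less common side. In NeuN- nuclei there was 1 loss, at Cdc42, and 1 gain, at the ephrin-B scaffold gene Grip1. Both had an adjusted p of 0.00556 in the authors' deposited table, where 29.3% of listed regions were lost and 70.6% gained with an adjusted p of 0.05 or less. The counts were low. At Cdc42 they were 0.00, 2.64 and 1.63 after enriched housing and 6.63, 8.79 and 9.04 in normal housing. At Grip1 they were 8.14, 5.28 and 6.51 after enriched housing, against 0.95, 0.00 and 1.81.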

How the data were processed

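The 10 genes, the lists of family and partner genes and the rule for named regions were chosen with earlier results of these data known. Of 66 samples, 41 belonged to the 14 groups compared in 7 tables, and 20 were inputs. The submitters' processing notes name the aligner Bowtie (0.12.7), bedtools (2.16.2) and the mm9 build. For the calling of regions, the tool was not given in these sources. Per the file headers, the authors deposited for each region the normalised read counts of the libraries, packed without library names, their group mean as a signal, a ratio of each group to input, a log2 difference, and a p-value with its adjusted p-value. The unstimulated group at 30 min has 4 libraries in the labels, 1 of them a repeat, and 3 values per region. All listed regions differ by about 3-fold or more, so the shares of gained and lost regions are shares of listed regions.

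Regions were matched to genes by the identifier or symbol in each row. Means and SDs were computed from the packed values with Python 3.11.15, pandas 2.3.3 and numpy 2.4.6. The worth of 1 read was the largest step of which low values (under 30 reads) are multiples within 0.1, a search tested on simulated data. Positions, introns and sequences came from the annotation and genome of NCBIM37, the assembly behind mm9. All 10 genes were named. In CATCH-IT, the gained and the lost region with the smallest p were named for each gene, as was the region with the highest mean at a promoter, with reads in only 1 group, and with reads in both. The alternatives were stricter adjusted p thresholds, the ratio to input, pseudocounts, distances between regions and leaving out libraries. Of the per-sample columns, 0 were unused.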

Additional observations from a re-analysis of the deposited data

How the results depend on the processing

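Among the H3.3 regions, at an adjusted p of 0.01 or less the counts were 0 gained at 30 min, 0 at 2 hr and 0 at 5 hr, and 0 lost in NeuN+ nuclei; at 0.05 or less the 2 gained at 5 hr became 0, and the other counts were unchanged. With a pseudocount of 1 added to the group means, 1 of the 2 regions gained at 5 hr was past 3-fold. Leaving out 1 library with that pseudocount gave 0 to 1 at 30 min, 0 to 1 at 2 hr, 1 to 2 at 5 hr and 0 to 1 in NeuN+ nuclei, and 34 to 35 gained and 27 to 31 lost in CATCH-IT. Leaving out 1 library with no pseudocount, added after seeing the data as was the pseudocount on all libraries, gave 1 at 30 min and 2 hr, 1 to 2 at 5 hr and 1 in NeuN+ nuclei. In CATCH-IT 3 gained and 3 lost regions had a defined ratio to input in both groups that moved the same way. Allowing 1000 bp between regions of different tables gave 1 pair in place of 0. The cause of these changes was not tested, apart from the pseudocount, which shrinks each ratio. The log2 differences at the 5 H3.3 regions kept their direction under every pseudocount and omission run. The groups did not overlap at any of these regions, so no such run could have turned the direction.

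In CATCH-IT, 4 of the 9 lost Epha6 regions fell under 3-fold (pseudocount of 1) without the second unstimulated value. Of the others, 1 lost Epha3 and 1 lost Epha5 region did so without the third, and the gained Epha3 region without the first KCl value. Depth limits these results: 8 to 49 reads stood behind a CATCH-IT region, and lane or run cannot be told apart from treatment in the comparisons with a region. No paired analysis was possible because the packed values carry no library names and no test was made.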
